A study of Mus musculus with 12 samples.

Results

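Mice that ran on a wheel after chronic restraint but whose behaviour was judged not to improve, the ineffective responders, were compared with mice that were never stressed and had no wheel treatment. The comparison used 6 of the 12 ventral hippocampus RNA libraries of the series, 3 ineffective responders (mice 6, 19 and 20) and 3 controls (mice 2, 8 and 12), chosen by their labels and not by any expression value. All 12 mice were male C57BL/6J of wild-type genotype, and the protocol gives an age of 8 weeks. Control mice had no treatment. Ineffective responders were held in tubes for 2 hours a day on 14 days, were classed as susceptible to this stress, and then had free access to a running wheel, for 14 days according to the sample titles and for 4 weeks according to the protocol. The remaining groups, used here only for reference, were restrained susceptible mice without a wheel (SS) and restrained susceptible mice whose behaviour improved with the wheel (effective responders), with 3 mice each. No group had a wheel without stress, so stress, wheel access and the behavioural selection of the ineffective responders cannot be told apart in their comparison with controls.

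The ventral hippocampus is the part of the hippocampus most closely tied to emotion and to the control of the stress hormone axis. Glucocorticoids released during stress act there through the glucocorticoid receptor (Nr3c1) and the mineralocorticoid receptor (Nr3c2), which bind DNA and raise or lower transcription in neurons and glia. Astrocytes respond to these hormones and also clear glutamate, supply neurons with metabolites and make much of the sterol and lipid that neurons use. In bulk tissue, fewer cells of a type and less RNA per cell cannot be told apart.

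Promoter sequence of 3 genes is shown first because these genes are described below as higher in ineffective responders and share a stretch of letters. Fam107a, which had the smallest p of all genes, encodes an actin-binding protein of astrocytes and neurons and is a known stress- and glucocorticoid-responsive gene. Slc1a2 encodes a glutamate transporter of astrocytes and Glul their glutamine synthetase. All 3 hold ACANNNTGT, the core of the element bound by the glucocorticoid and mineralocorticoid receptors, which reads the same on both strands. For Fam107a the RefSeq table lists 3 start sites. The 250 bases before the first of them whose window holds this core are printed (GRCm38.p6, chr14:8309780-8310029, minus strand), so that start was chosen for the match. That start lies inside the gene (chr14:8296270-8317607 in GENCODE), and so does the single start the table lists for Slc1a2 (chr2:102658239-102790784), so neither is the outermost start. For the others the stretch is given with 8 bases on each side (chr2:102706339-102706363 and chr1:153899896-153899920, plus strand). Capitals mark ACANNNTGT, which begins 116, 91 and 25 bases before these listed starts of Fam107a, Slc1a2 and Glul.
Fam107a: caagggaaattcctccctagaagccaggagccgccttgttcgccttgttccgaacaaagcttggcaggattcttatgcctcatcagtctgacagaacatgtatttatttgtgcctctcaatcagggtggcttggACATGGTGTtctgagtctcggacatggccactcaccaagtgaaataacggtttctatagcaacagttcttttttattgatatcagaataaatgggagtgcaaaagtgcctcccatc
Slc1a2: tcaataggACAGCATGTgacttctt
Glul: gggcgggcACAAGCTGTcaataaaa
The core is common, since 5.84% of the 32851 windows of the same length in the table hold it. By gene, with a match at any listed start counted, it was found in 7 of the 89 called higher genes with an entry (7.87%) and 1 of the 28 called lower genes, against 4.60% of tested genes. Sipa1l1, Iqsec2, Plce1 and Ivd are the called higher genes that held the core and are not printed. Of 20 glucocorticoid-induced genes with an entry, 4 held it, none of them among the called genes. A match in the letters is a description and no evidence of binding.

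A few properties of the libraries bear on every result below. The 6 libraries held 9323607 to 14041951 counts, and log2 values of any pair of them correlated with r of 0.973 to 0.986 across genes. Control mouse 2 stood apart in genes of tissue next to the hippocampus. The summed level of 16 choroid plexus genes was 4734 CPM (counts scaled to library size) in that mouse, against 143 and 219 in control mice 8 and 12 and 210, 1483 and 225 in ineffective responders 6, 19 and 20. Ttr, the choroid plexus transthyretin gene, read 3564 CPM in control mouse 2 and 2.82 and 20.4 in the other controls. The sum of 11 thalamic genes was 409 CPM in control mouse 2 and 185 to 213 in the other 5 mice. Among the groups used for reference, SS mouse 18 stood apart. It correlated at r of 0.951 and 0.955 with the other SS mice, which correlated at 0.991 with each other, and its choroid plexus sum was 6839 CPM against 98.2 and 103. Malat1, a long noncoding RNA kept in the nucleus, read 508, 266 and 496 CPM in controls and 1415, 1489 and 995 in ineffective responders, which did not pass the test (log2 fold change 1.62 ± 0.56 SE, adjusted p = 0.151). It read 511 CPM in SS mouse 18 and 3813 and 5270 in SS mice 19 and 21, so those mice stood apart in this gene. In all 3 ineffective responders Lars2, Zc3h7a, Cmss1 and Filip1l were listed at 0. They were set aside, because Lars2 alone had 138265 to 229501 counts in the controls.

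**Figure D1:**
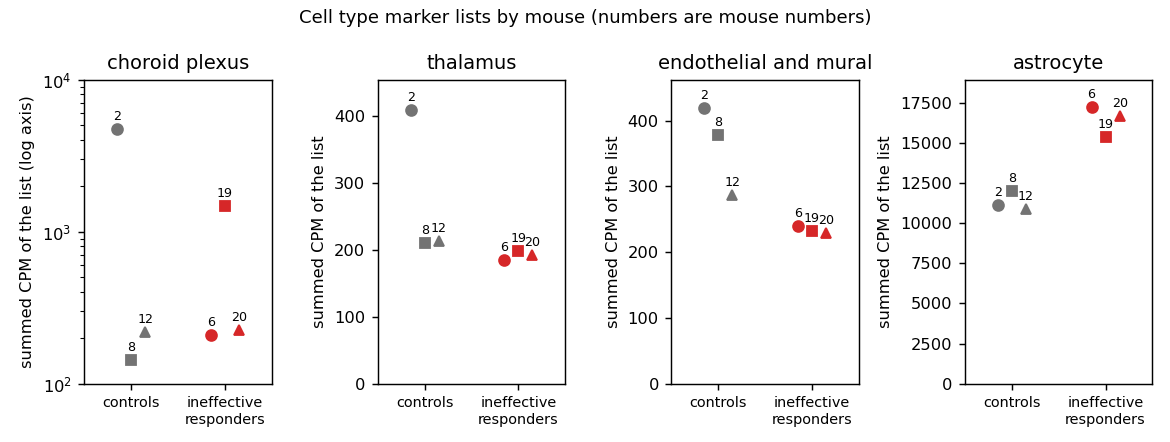
Summed CPM of the choroid plexus, thalamic, endothelial and mural, and astrocyte gene lists (vertical axes, the first on a log scale) in the 3 controls (grey) and the 3 ineffective responders (red), 1 point per mouse. Control mouse 2 is highest in the first 3 lists, while the astrocyte sums of all 3 ineffective responders lie above all 3 controls.

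Fold changes also followed transcript length. In the shortest decile of genes (132 to 1226 bases) the median log2 fold change was -0.19, and in the longest decile (6409 bases and over) it was 0.20, with a steady climb between them. Relative to controls, the median went from -0.27 to 0.26 over that range in ineffective responder 6 and from -0.22 to 0.24 in 20, but only from -0.06 to 0.10 in 19. Genes called higher had a median transcript length of 4885 bases and genes called lower 1744, against 2990 for all genes tested. What part of the calls this gradient accounts for was not tested directly. The fit was therefore repeated with length and GC content corrected, and the corrected median is given beside that of each list below.

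**Figure D2:**
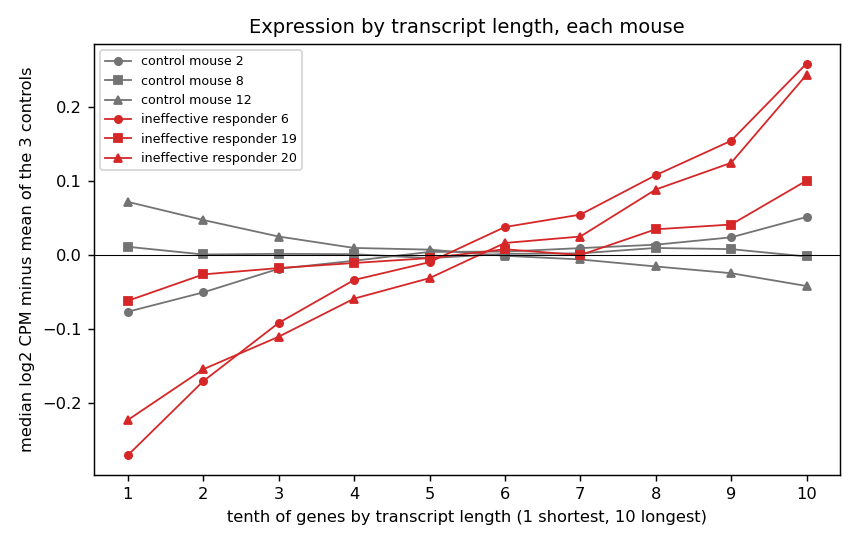
Median log2 CPM relative to the mean of the 3 controls (vertical axis) in each decile of genes ordered by transcript length (horizontal axis), 1 line per mouse. Ineffective responders 6 and 20 rise from about the same low value for short transcripts to a high one for long transcripts, and 19 follows with a smaller slope.

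Of 14548 genes tested, 162 (1.11%) differed between ineffective responders and controls at an adjusted p under 0.05 (edgeR quasi-likelihood F test with Benjamini-Hochberg adjustment). The 119 higher genes (0.818% of those tested) had log2 fold changes of 0.32 to 1.80 with a median of 0.58. The 43 lower genes (0.296%) ranged from -0.39 to -2.00 with a median of -0.60. In all 162 the 3 values of one group lay outside those of the other, which was also true of 3658 of all genes tested (25.1%). The called genes thus separated the groups mouse by mouse, with changes that were mostly modest in size. Leaving out 1 mouse at a time gave 50 genes without control mouse 2, 2 without control mouse 8, 0 without control mouse 12, 2 without ineffective responder 6, 168 without 19 and 0 without 20. In the fits that gave 0, edgeR had 2103 (without control mouse 12) and 1961 (without 20) genes at an unadjusted p under 0.05, against 2679 with all mice. Each of the 162 genes kept its sign in all 6 of these fits. That follows from groups without overlap and is no measure of stability. The limma-voom test called 147 genes and DESeq2 773, and with length and GC content corrected 11 were called.

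Those 11 were all among the 162, so every other called gene lost its call under the correction. They were Fam107a, Prodh, Alox12b, Sox9, Mertk, Idh2, Clu, Sult1a1 and Rtp1, all higher, and Acat3 and Myh11, both lower. Idh2, Clu and Rtp1 are outside the rule for named genes and were chosen after their values were seen. Prodh, the mitochondrial enzyme that begins proline breakdown, read 33.3, 29.6 and 30.7 CPM in control mice 2, 8 and 12 and 52.2, 51.4 and 45.0 in ineffective responders 6, 19 and 20 (log2 fold change 0.67 ± 0.10, adjusted p = 0.0187). Values are given in this order of mice throughout. Alox12b, a lipoxygenase, rose from 4.42, 4.04 and 5.31 CPM to 10.5, 8.87 and 10.8 (1.13 ± 0.16, adjusted p = 0.0187). Idh2, the mitochondrial isocitrate dehydrogenase that uses NADP, went from 51.1, 43.3 and 48.8 CPM to 81.9, 79.7 and 65.6, and Clu, the secreted chaperone clusterin made by astrocytes, from 953, 908 and 962 to 1235, 1354 and 1250. Acat3, an acetyl-coenzyme A acetyltransferase, fell from 43.1, 43.5 and 46.7 CPM to 21.5, 30.5 and 21.2 (-0.86 ± 0.14, adjusted p = 0.0259). It has a close neighbouring copy, Acat2, so reads may have been divided between them in a way that these counts do not show.

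**Figure D3:**
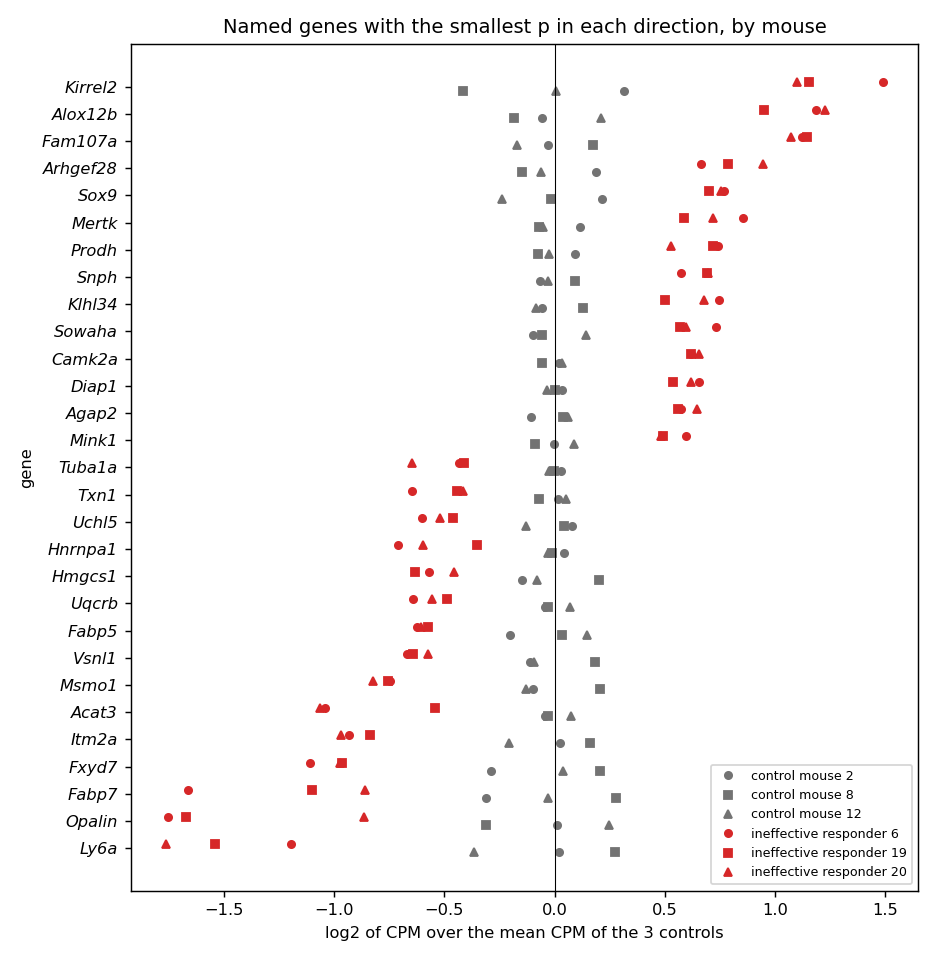
Log2 of each mouse's CPM over the mean CPM of the 3 controls (horizontal axis) for named genes among the 15 of each direction with the lowest p (vertical axis), controls in grey and ineffective responders in red, 1 point per mouse. Only called genes without overlap between the groups were eligible, so in all 29 genes shown the 3 red points lie on one side of the 3 grey points. The spread among red points is widest for Opalin, Fabp7 and Ly6a.

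Of 18 astrocyte markers, 6 rose and none fell, where 0.818% of all genes tested were called higher. Their median log2 fold change was 0.31, against -0.01 over all genes tested. With length and GC content corrected the median was 0.28. In 10 of the 18 every ineffective responder was above every control, a pattern seen in 12.5% of all genes tested. Fam107a read 589, 679 and 534 CPM in controls and 1307, 1328 and 1266 in ineffective responders. That is a 2.16-fold rise (log2 1.11 ± 0.13, adjusted p = 0.00828), with less spread among the treated mice than among the controls. Fam107a was called in 4 of the 6 fits that leave out 1 mouse, which no gene but Snph equalled.

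Sox9, a transcription factor that keeps astrocyte identity, rose from 68.6, 58.4 and 50.1 CPM to 101, 95.9 and 99.5 (0.74 ± 0.11, adjusted p = 0.0187). Slc1a2, the main glutamate transporter of astrocytes, rose from 3654, 3994 and 3407 to 5899, 5129 and 6357 (0.65 ± 0.12, adjusted p = 0.0366). Glul, the glutamine synthetase that acts on the glutamate taken up, rose from 2375, 2606 and 2407 to 4172, 3330 and 3486 (0.57 ± 0.12, adjusted p = 0.0466). The transporter and the enzyme thus moved in the same direction, with no overlap between the groups in either. Fgfr3, a fibroblast growth factor receptor of astrocytes, and the secreted protease Htra1 each rose by 0.58 in log2 units, with adjusted p = 0.0399 and 0.0473. Glul and Htra1 were named after their values were seen. Other defining markers did not pass the test. Gfap, the intermediate filament of reactive astrocytes, was at 0.31 ± 0.24 on the log2 scale (adjusted p = 0.527), and Aqp4, the water channel of astrocyte end-feet, -0.24 ± 0.18 (adjusted p = 0.514). Both were picked as defining markers, outside the rule for named genes. Aldoc, a glycolytic enzyme of astrocytes, did not pass the threshold either, at 0.43 ± 0.10 (adjusted p = 0.0513).

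Etnppl, a phospholyase found in astrocytes and also named after its values were seen, rose from 51.3, 22.4 and 25.1 CPM to 76.0, 81.9 and 80.6 (1.28 ± 0.24, adjusted p = 0.037). By contrast, 2 fatty acid binding protein genes fell. Fabp7, found in radial glia and astrocytes, fell from 51.4, 77.4 and 62.6 CPM to 20.1, 29.7 and 35.2 (-1.18 ± 0.23, adjusted p = 0.0384). Fabp5 fell from 116, 137 and 148 to 86.7, 89.6 and 87.9 (-0.60 ± 0.11, adjusted p = 0.037). Their transcripts are short (804 bases for Fabp7 and 987 for Fabp5), and after length and GC correction their log2 fold changes were -0.85 and -0.37 with neither called.

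No isoform of Slc1a2 passed the test on its own. The isoform with the longest transcript, 11595 bases with a coding length of 1716, read 600, 854 and 487 CPM in controls and 2621, 1639 and 3610 in ineffective responders, a log2 difference of 2.02 ± 0.42 (adjusted p = 0.0983 over 20413 transcripts). The isoform of 1957 bases read 3073, 3135 and 2906 CPM in controls and 3238, 3465 and 2723 in ineffective responders, 0.05 ± 0.09 (adjusted p = 0.887). A rare isoform of 2127 bases read 4.35, 6.87 and 4.00 CPM against 14.9, 11.3 and 16.2 (1.47 ± 0.31, adjusted p = 0.0976). The groups separated in the longest and in the rare isoform. The part of the length gradient in the value of the longest isoform was not tested, and how reads were assigned to isoforms is not given in the sources used here.

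Of 22 genes induced by glucocorticoids, 4 rose and none fell, against 0.818% of all genes called higher. Of the 22, 19 had a positive log2 fold change, with a median of 0.40 that was 0.41 after length and GC correction. In 10 of them all ineffective responders were above all controls, against 12.5% of all genes. The list as a whole did not separate the groups. Its sums were 1660, 1602 and 2258 CPM in controls and 2436, 2360 and 2097 in ineffective responders. Control mouse 12 thus lay above ineffective responder 20. Mertk, the receptor with which glia engulf synapses and debris, rose from 33.1, 29.0 and 29.4 CPM to 55.2, 45.9 and 50.2 (0.73 ± 0.12, adjusted p = 0.0267). Zbtb16, a zinc finger repressor, rose from 43.5, 48.7 and 53.6 to 85.5, 73.0 and 74.0 (0.67 ± 0.12, adjusted p = 0.0366). Sult1a1, a sulfotransferase, rose from 17.7, 9.61 and 11.5 to 28.9, 36.5 and 22.3 (1.19 ± 0.22, adjusted p = 0.037). Hif3a, a hypoxia-inducible factor subunit, rose from 5.92, 4.26 and 7.75 to 13.9, 12.0 and 13.2 (1.13 ± 0.22, adjusted p = 0.0384). The other 18 did not pass the test. Fkbp5, the receptor co-chaperone that limits hormone binding, read 68.8, 62.0 and 98.3 CPM in controls and 113, 124 and 110 in ineffective responders. All treated values were above all control values, the controls were widely spread, and the gene did not pass the test (0.60 ± 0.22, adjusted p = 0.172). Per1, a clock gene with a receptor element, was at 0.42 ± 0.16 (adjusted p = 0.199).

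The receptors themselves did not pass the test. Nr3c1 read 110, 132 and 95.7 CPM in controls and 117, 92.3 and 130 in ineffective responders (0.00 ± 0.14, adjusted p = 0.992), with complete overlap. Nr3c2 read 93.1, 62.6 and 77.9 against 107, 94.1 and 117 (0.45 ± 0.17, adjusted p = 0.171). Of 13 measured genes of corticosteroid and corticotropin-releasing hormone signalling, 2 rose and none fell, against 0.818% of all genes called higher. The median was 0.18, or 0.13 after length and GC correction. The 2 that rose were Ncor1, a corepressor of nuclear receptors (0.45 ± 0.09, adjusted p = 0.0389), and Ncoa1, a coactivator of them (0.42 ± 0.09, adjusted p = 0.042). After the correction they were at 0.22 and 0.21 (adjusted p = 0.267 and 0.298). The receptor Crhr1 was at -0.59 ± 0.27 (adjusted p = 0.263).

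Of 24 genes of the postsynaptic density, the protein scaffold under excitatory synapses, 5 rose and none fell, against 0.818% of all genes called higher. The median was 0.44, or 0.25 after length and GC correction. In 13 of the 24 the groups separated with ineffective responders above, against 12.5% of all genes. Camk2a, the alpha subunit of the calcium/calmodulin kinase needed for synaptic potentiation, rose from 4078, 3870 and 4116 CPM to 6172, 6175 and 6328 (0.63 ± 0.09, adjusted p = 0.0187). Dlg4, which encodes the scaffold PSD-95, rose from 829, 897 and 971 to 1256, 1390 and 1250 (0.53 ± 0.09, adjusted p = 0.0269). Ppp1r9b, the spine protein spinophilin, rose from 1778, 2089 and 1988 to 2636, 2943 and 2786 (0.51 ± 0.10, adjusted p = 0.0399). Git1, an adaptor of spine actin signalling, was higher by 0.48 ± 0.10 log2 units, adjusted p = 0.0473. Shank1, a large scaffold named after its values were seen, was at 0.77 ± 0.19 without passing the test (adjusted p = 0.0702). None of the 4 called genes named here passed after length and GC correction, where Camk2a was at 0.47, Dlg4 at 0.43, Ppp1r9b at 0.30 and Git1 at 0.37.

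Agap2, an activator of phosphoinositide 3-kinase signalling, rose from 1141, 1261 and 1280 CPM to 1826, 1812 and 1920 (0.59 ± 0.09, adjusted p = 0.0187), and was at 0.32 after length and GC correction (adjusted p = 0.18). Snph, syntaphilin, which anchors mitochondria in axons, rose from 388, 434 and 398 to 605, 656 and 660 (0.65 ± 0.09, adjusted p = 0.0187). Itpr1, the calcium release channel of the endoplasmic reticulum, and Itpka, a kinase of its ligand, rose by 0.83 ± 0.16 and 0.45 ± 0.09 (adjusted p = 0.037 and 0.0398), both named after their values were seen. No gene was called among 24 glutamate receptor genes, 20 GABA and glycine genes, 27 vesicle release genes, 30 sodium and calcium channel genes and 20 monoamine receptor genes. Their medians were 0.18, -0.02, -0.01, 0.13 and 0.33, and after length and GC correction 0.03, 0.00, -0.12, -0.07 and 0.27. The sign of the sodium and calcium channel median thus turned under the correction. Gria1, an AMPA receptor subunit, read 890, 593 and 770 CPM in controls and 1035, 1124 and 1086 in ineffective responders (0.53 ± 0.14, adjusted p = 0.0777).

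Among growth factor genes, 1 of 18 rose and none fell, against 0.818% of all genes called higher. Their median was 0.04, or 0.02 corrected. The riser was Ntrk2, the receptor of brain-derived neurotrophic factor, at 590, 574 and 514 CPM in controls and 780, 811 and 888 in ineffective responders (0.56 ± 0.12, adjusted p = 0.042). Its ligand gene Bdnf read 45.3, 44.5 and 54.5 against 53.1, 51.0 and 51.0 (0.10 ± 0.10, adjusted p = 0.62), with overlapping groups. Igf1, a growth factor tied to running, was at -0.39 ± 0.13 (adjusted p = 0.15). Ntrk2 makes a full-length kinase and a truncated receptor that is prominent in astrocytes. The transcript with the shorter coding length, 1428 bases, had a log2 difference of 0.69 ± 0.13 (adjusted p = 0.0853 over transcripts). The one with the coding length of 2463 had 0.30 ± 0.11 (adjusted p = 0.277). The difference between the 2 isoforms was not tested.

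Immediate early genes, which report recent neuronal activity, gave no call among 18, though 15 were positive and their median was 0.28, or 0.19 corrected. Those with the smallest p were Junb (46.4, 48.8 and 51.0 CPM against 67.7, 67.6 and 90.5, adjusted p = 0.0928) and Egr2 (0.752, 2.24 and 1.31 against 5.43, 2.70 and 7.69, adjusted p = 0.0987). In both genes every treated mouse was above every control, as in 3 of the 18 and in 12.5% of all genes. The list as a whole overlapped between groups. Its sums were 870, 1159 and 1035 CPM in controls and 1260, 1002 and 1310 in ineffective responders. Arc, a plasticity gene, overlapped between groups, at 57.2, 99.2 and 95.7 CPM in controls and 144, 72.7 and 177 in ineffective responders. Crtc1, a coactivator of the activity-dependent factor CREB, rose from 199, 211 and 231 CPM to 311, 266 and 282 (0.42 ± 0.09, adjusted p = 0.0466, and 0.19 corrected) and was named after its values were seen.

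All 35 chromatin cofactor genes had positive log2 fold changes, yet only 3 were called, against 0.818% of all genes called higher. Their median was 0.35, and in 28 of them every ineffective responder was above every control, against 12.5% of all genes. Crebbp, the histone acetyltransferase CBP, rose from 35.3, 32.4 and 26.6 CPM to 64.7, 50.4 and 55.6 (0.86 ± 0.16, adjusted p = 0.0366). Arid1b, a subunit of the BAF remodelling complex, rose from 102, 93.5 and 103 to 132, 131 and 133 (0.40 ± 0.08, adjusted p = 0.0399), and Ncor1 is the third. The counted transcripts of Crebbp and Arid1b have 10820 and 11325 bases, and after length and GC correction the median was 0.06, with Crebbp at 0.53 and Arid1b at 0.06 and neither called. The median of the list was thus close to that of all genes once length and GC content were in the fit. Of 30 splicing genes (median -0.12, or -0.05 corrected), Rbfox2 rose (0.40 ± 0.09, adjusted p = 0.0459) and Hnrnpa1 fell from 211, 203 and 201 CPM to 125, 160 and 136 (-0.55 ± 0.10, adjusted p = 0.0366). That is 1 call in each direction among the 30, against 0.818% of all genes called higher and 0.296% called lower. Hnrnpa1 has many processed copies in the genome, so its level is uncertain.

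Of 76 genes of the respiratory chain and ATP synthase, 4 fell and none rose, against 0.296% of all genes called lower. Among them 73 had a negative log2 fold change, and the median was -0.27, or -0.10 after length and GC correction. In 38 of them all ineffective responders were below all controls, a pattern seen in 12.6% of genes tested. Uqcrb, a subunit of complex III, fell from 124, 126 and 135 CPM to 82.2, 91.5 and 87.1 (-0.56 ± 0.11, adjusted p = 0.0399). Ndufc1 and Ndufa5, subunits of complex I, fell by 0.55 ± 0.12 log2 units each (adjusted p = 0.0466 for the former and 0.049 for the latter), and Atp5j, a subunit of ATP synthase, by 0.40 ± 0.09 (adjusted p = 0.049). None of the 4 was called after length and GC correction, where Uqcrb was at -0.19. Mdh1, the cytosolic malate dehydrogenase, fell from 901, 1000 and 880 CPM to 599, 688 and 640 (-0.53 ± 0.11, adjusted p = 0.0404) and was named after its values were seen. Cytosolic ribosomal proteins (78 genes, median -0.11), mitochondrial ribosomal proteins (51, -0.19) and proteasome subunits (20, -0.22) had no call. Once corrected their medians were 0.06, -0.09 and -0.07, so that of the cytosolic ribosome turned sign. All 20 proteasome genes were negative before correction.

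Of 17 calcium sensor genes, 1 rose and 2 fell, against 0.818% of all genes called higher and 0.296% called lower. Their median was -0.12, or -0.07 corrected. Vsnl1, the calcium sensor visinin-like 1, fell from 721, 886 and 730 CPM to 490, 500 and 523 (-0.63 ± 0.11, adjusted p = 0.0295). Pcp4, a calmodulin regulator, fell from 326, 208 and 186 to 111, 119 and 125 (-1.02 ± 0.22, adjusted p = 0.0466), with control mouse 2 the highest. Ncs1, another calcium sensor, rose from 469, 586 and 561 to 719, 811 and 721 (0.48 ± 0.11, adjusted p = 0.049). Tuba1a, a tubulin gene outside the lists, fell from 673, 658 and 648 CPM to 488, 496 and 422 (-0.49 ± 0.09, adjusted p = 0.0389) and Tubb3, a neuronal tubulin, from 275, 308 and 255 to 181, 219 and 199 (-0.48 ± 0.10, adjusted p = 0.0466). Tubb3 was the only call among the 13 genes of the neurogenesis list, where 0.296% of all genes were called lower. The median of that list was -0.03, or -0.11 corrected. Stmn4, a regulator of microtubule growth named after its values were seen, fell from 219, 198 and 197 to 152, 152 and 152 (-0.43 ± 0.09, adjusted p = 0.0466). Fxyd7, a brain regulator of the sodium pump, fell from 32.1, 45.2 and 40.3 CPM to 18.2, 20.1 and 20.0 (-1.02 ± 0.20, adjusted p = 0.0399). The redox protein Txn1 fell by 0.50 ± 0.10 log2 units (adjusted p = 0.0397), and the deubiquitinase Uchl5 by 0.53 ± 0.10 (adjusted p = 0.0399).

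Of 19 genes of cholesterol synthesis, 2 fell and none rose, against 0.296% of all genes called lower. Among them 17 were negative, and the median of -0.31 was also -0.31 after length and GC correction. In 7 of the 19 all ineffective responders were below all controls, against 12.6% of all genes. The sums were 1262, 1474 and 1244 CPM in controls and 1026, 999 and 1135 in ineffective responders. The median log2 value relative to controls overlapped between groups, at -0.05, 0.14 and -0.11 in controls and -0.36, -0.33 and -0.10 in ineffective responders. Msmo1, the methylsterol monooxygenase, fell from 99.3, 123 and 97.1 CPM to 63.4, 63.0 and 60.1 (-0.77 ± 0.12, adjusted p = 0.0259). Hmgcs1, the synthase that makes the substrate of HMG-CoA reductase, fell from 285, 362 and 298 to 212, 203 and 230 (-0.55 ± 0.10, adjusted p = 0.0366). Cyp51 (74.7, 88.9 and 75.2 CPM against 55.3, 51.4 and 59.5, adjusted p = 0.0784) and Idi1 (63.8, 111 and 78.1 against 60.9, 47.0 and 67.8, adjusted p = 0.149) were lower on average without passing the test, and were named after their values were seen. The groups separated in Cyp51 and overlapped in Idi1. Srebf1 and Srebf2 were named in the same way. Srebf1, a lipid-synthesis transcription factor, rose from 52.3, 35.2 and 36.5 CPM to 61.5, 65.4 and 69.5 (0.67 ± 0.14, adjusted p = 0.0451), whereas Srebf2, the main driver of sterol genes, was at 0.17 ± 0.09 (adjusted p = 0.342).

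Because 17 of the 19 genes were lower on average, their promoters were read for the elements known to drive them, the sterol regulatory element, where the SREBP factors bind, and the CCAAT box of the factor NF-Y that acts beside it. The 250 bases before the Hmgcs1 start (GRCm38.p6, chr13:119690101-119690350, plus strand) hold 4 such stretches, shown in capitals. TCACNCCAC begins 137 bases before the start, and CCAAT, here on the other strand as ATTGG, begins 237, 176 and 45 bases before it.
Hmgcs1: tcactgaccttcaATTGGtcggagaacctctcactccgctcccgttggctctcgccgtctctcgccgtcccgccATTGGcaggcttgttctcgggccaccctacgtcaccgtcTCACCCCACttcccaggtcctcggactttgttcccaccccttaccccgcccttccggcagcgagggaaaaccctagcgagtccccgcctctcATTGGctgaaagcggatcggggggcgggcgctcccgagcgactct
The CCAAT box nearest the start of 3 further members is given with 10 bases on each side, on the strand of the gene.
Msmo1: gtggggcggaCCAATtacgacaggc
Cyp51: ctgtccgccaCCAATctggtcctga
Idi1: ccaaggtgccATTGGctggcgaccg
The Msmo1 box begins 55 bases before the start (chr8:64733619-64733643), that of Cyp51 29 bases (chr5:4104712-4104736) and that of Idi1 14 bases (chr13:8885582-8885606). CCAAT occurred on either strand in all 12 sterol genes with a promoter entry, against 40.2% of tested genes and 33.8% of all windows. It was found in 28 of 89 called higher genes and 14 of 28 called lower genes with an entry. TCACNCCAC was found in 1 of the 12, Hmgcs1, against 1.05% of all windows. These are letter matches and say nothing of which factor was bound in these mice.

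Of 18 genes of endothelial and mural cells, which form blood vessels, 3 fell and none rose, against 0.296% of all genes called lower. Among them 17 were negative, and the median was -0.56, or -0.60 after length and GC correction. Their summed level was 418, 378 and 287 CPM in controls and 240, 232 and 229 in ineffective responders, so all 3 treated mice lay below the lowest control. Without control mouse 2, which had the highest sum and the choroid plexus signal, the median was -0.40. What part tissue next to the hippocampus has in this was not tested. Ly6c1, a surface protein of brain endothelium, fell from 28.8, 35.8 and 32.1 CPM to 16.2, 10.2 and 9.56 (-1.42 ± 0.29, adjusted p = 0.042). Ly6a, a relative of Ly6c1 on the same cells that is outside the list, fell from 21.5, 25.7 and 16.5 to 9.26, 7.30 and 6.26 (-1.47 ± 0.27, adjusted p = 0.0366). Reads of these related genes may be shared. Itm2a fell from 46.2, 50.7 and 39.3 to 23.8, 25.4 and 23.2 (-0.91 ± 0.17, adjusted p = 0.037), and Myh11, smooth muscle myosin, from 10.8, 8.52 and 6.45 to 3.91, 3.74 and 4.50 (-1.09 ± 0.22, adjusted p = 0.0399). Further genes outside the list, named after their values were seen, were also called lower. Emcn, an endothelial sialoprotein, fell by 1.59 ± 0.34 (adjusted p = 0.0466), Klf2, a flow-responsive endothelial factor, by 1.10 ± 0.24 (adjusted p = 0.049), and Myl9, a smooth muscle myosin light chain, by 1.07 ± 0.22 (adjusted p = 0.042), all on the log2 scale.

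Myelin genes had 1 of 18 called lower, against 0.296% of all genes, with 16 negative and a median of -0.35, or -0.33 corrected. Opalin, an oligodendrocyte membrane protein, fell from 30.6, 24.6 and 36.2 CPM to 9.02, 9.56 and 16.7 (-1.38 ± 0.25, adjusted p = 0.0366). The list as a whole varied between mice of the same group, with sums of 9028, 6635 and 10938 CPM in controls and 9052, 5047 and 6568 in ineffective responders. Among 14 microglial genes only Csf1r, the receptor that keeps microglia alive, was called, where 0.818% of all genes were called higher. Csf1r rose from 72.6, 72.4 and 72.3 CPM to 109, 105 and 112 (0.59 ± 0.10, adjusted p = 0.0317), while the list's median was -0.06, or 0.12 corrected. Interferon-induced genes gave no call among 20, though 19 were negative with a median of -0.37, or -0.29 corrected. Irf7, the master regulator of that response, read 1.32, 1.73 and 1.48 CPM in controls and 0.399, 0.522 and 0.330 in ineffective responders (adjusted p = 0.068). The treated values rest on 5, 6 and 3 counts and so lie near the floor. The complement gene C3 read 0.940, 0.072 and 0.610 CPM against 4.71, 3.30 and 3.41 (adjusted p = 0.054), with a single count in control mouse 8.

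Markers of hippocampal subfields and of tissue around the hippocampus were checked for the dissection. None was called among genes of CA1 and subiculum (13 genes, median 0.22 and 0.18 corrected), dentate gyrus (14, 0.22 and 0.15), CA2 and CA3 (13, -0.01 and -0.02) and interneurons (19, -0.03 and -0.04). The same held for cortex and amygdala (10, -0.27 and -0.26), meninges (12, -0.40 and -0.45), ependyma (7, 1.07 and 1.17), thalamus (11, -1.06 and -1.03) and choroid plexus (16, -0.997 and -0.951). Without control mouse 2 the choroid plexus median turned to 2.35, the thalamic one was -0.48 and the ependymal one 2.16. Defining choroid plexus genes were at 0 counts for 3 of 16 members in control mouse 8 and 1 of 16 in ineffective responder 20. Lists of oligodendrocyte precursors (10 genes, median 0.06 and -0.01 corrected), glycolysis (21, -0.08 and -0.13), heat shock (21, -0.11 and -0.09) and circadian genes (17, 0.12 and 0.12) had no call. Nor had the integrated stress response (16, -0.10 and -0.09), neuropeptides (14, -0.15 and -0.10), histone variants (9, -0.15 and -0.15) and complement and antigen presentation (14, 0.15 and 0.16). ERK feedback (12, 0.10 and 0.07), cold shock (3, -0.06 and 0.15), blood (2, -0.20 and -0.10) and nuclear long noncoding RNAs (9, 0.35 and -0.01) also lacked a call, and the median of the last was close to 0 once corrected.

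**Figure D4:**
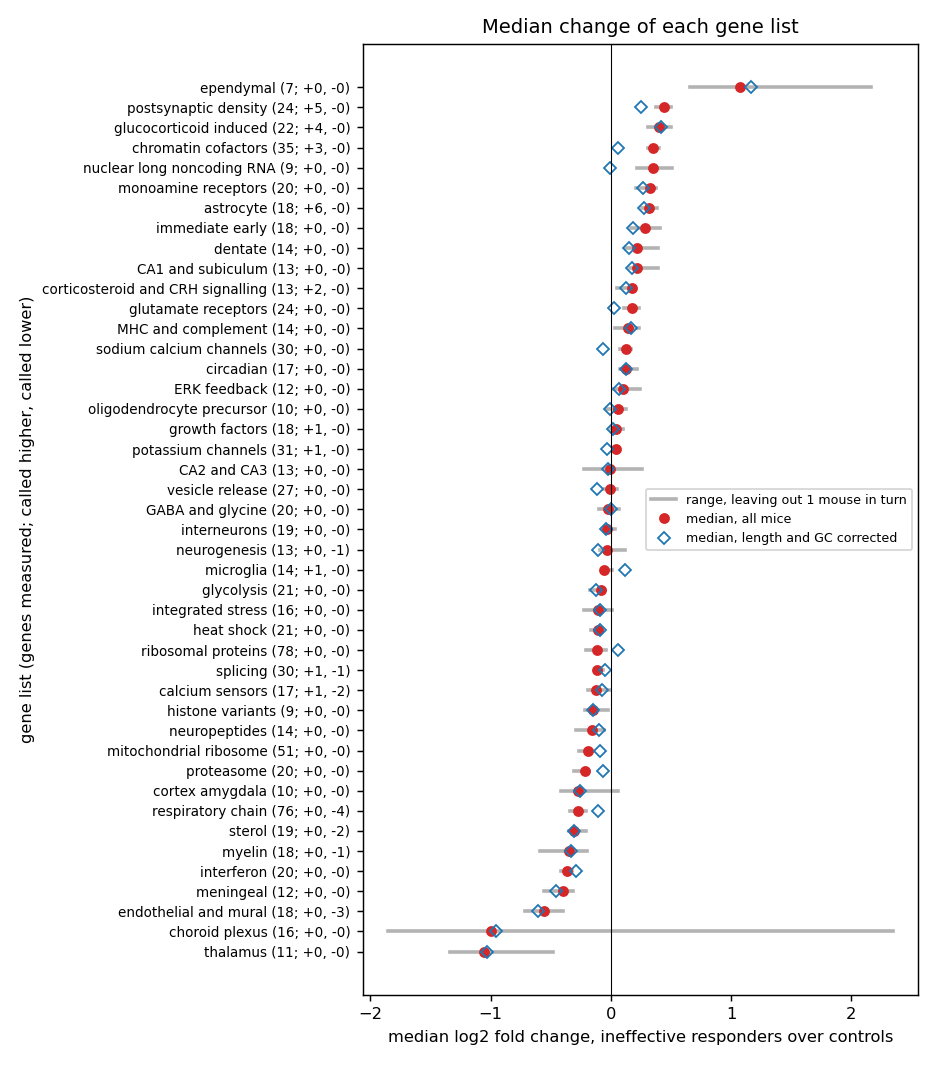
Median log2 fold change of ineffective responders over controls (horizontal axis) for each list with at least 7 genes measured (vertical axis, with the number of genes measured and called), as fitted (red), after length and GC correction (blue diamonds) and as a range over the fits that leave out 1 mouse (grey bars). The choroid plexus bar crosses 0, the chromatin and respiratory chain diamonds lie close to 0, and the glucocorticoid, astrocyte, sterol and endothelial diamonds lie near their red points.

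The remaining leading genes belong to no list. Kirrel2, a cell adhesion protein, rose from 11.8, 7.15 and 9.58 CPM to 26.7, 21.2 and 20.4 (1.27 ± 0.20, adjusted p = 0.0267). Rtp1, a receptor transport protein, rose from 2.44, 1.66 and 2.09 to 8.62, 7.74 and 5.05 (1.80 ± 0.30, adjusted p = 0.0295). Sowaha, an ankyrin repeat protein, rose from 170, 174 and 200 to 301, 269 and 274 (0.63 ± 0.09, adjusted p = 0.0187). Arhgef28, a guanine nucleotide exchange factor, rose from 54.4, 43.0 and 45.8 to 75.8, 82.3 and 92.1 (0.80 ± 0.13, adjusted p = 0.0269). Diap1, an actin-nucleating formin, rose by 0.60 ± 0.09, Klhl34 by 0.64 ± 0.10 and the kinase Mink1 by 0.52 ± 0.09 log2 units, where adjusted p was 0.0187, 0.0225 and 0.0269.

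The direct contrast between ineffective responders and SS mice asked whether these changes differed from those of stressed mice without a wheel. The changes of both groups were measured against the same controls. Of 14548 genes, 2 (0.0137%) were called, both higher in ineffective responders. Pou3f1, a transcription factor of CA1 and other forebrain neurons, read 76.2, 71.2 and 90.8 CPM in controls, 119, 106 and 115 in ineffective responders and 59.6, 67.3 and 50.8 in SS mice 18, 19 and 21. It stood 0.94 ± 0.12 above SS on the log2 scale (adjusted p = 0.0315), with 0.52 ± 0.12 above controls for ineffective responders (adjusted p = 0.0555) and -0.42 ± 0.12 for SS (adjusted p = 0.0429). Sox9 read 59.9, 59.9 and 51.5 CPM in SS, 0.79 ± 0.11 below ineffective responders (adjusted p = 0.0485). These groups did not overlap in either gene, so both had to keep their direction in every fit that left out 1 mouse of them. Pou3f1 was called in 2 of these 6 fits and Sox9 in 1, and leaving out ineffective responder 6, 19 or 20 or SS mouse 21 gave no called gene at all (2395, 2509, 1697 and 1521 at an unadjusted p under 0.05). Without SS mouse 19 the call for Pou3f1 remained the single one, and without SS mouse 18, which stood apart, the contrast called 2410 genes. Without it the differences were 0.94 for Pou3f1 (adjusted p = 0.000452) and 0.83 for Sox9 (adjusted p = 0.000593). That fit rests on SS mice 19 and 21, whose Malat1 levels (3813 and 5270 CPM) were the highest of the 12 mice.

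Fam107a read 875, 645 and 702 CPM in SS and 1127, 1031 and 1267 in effective responders 9, 10 and 12, against 1307, 1328 and 1266 in ineffective responders. The 0.81 ± 0.13 between ineffective responders and SS missed the threshold (adjusted p = 0.0844), and without SS mouse 18 it was 0.95 and passed (adjusted p = 0.000126). Slc1a2 showed 0.69 ± 0.12 and Git1 0.64 ± 0.10 in the same contrast (both adjusted p = 0.0867). For the astrocyte list, the median against controls was 0.31 in ineffective responders, -0.02 in SS and 0.18 in effective responders. For the postsynaptic list it was 0.44, 0.08 and 0.23. For glucocorticoid-induced genes it was 0.40, 0.42 and 0.59, and for sterol genes -0.31, -0.18 and -0.32. Msmo1 and Hmgcs1 differed between ineffective responders and SS by -0.13 ± 0.12 and 0.02 ± 0.10 (adjusted p = 0.609 and 0.937), which misses the threshold and does not show that they are alike.

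**Figure D5:**
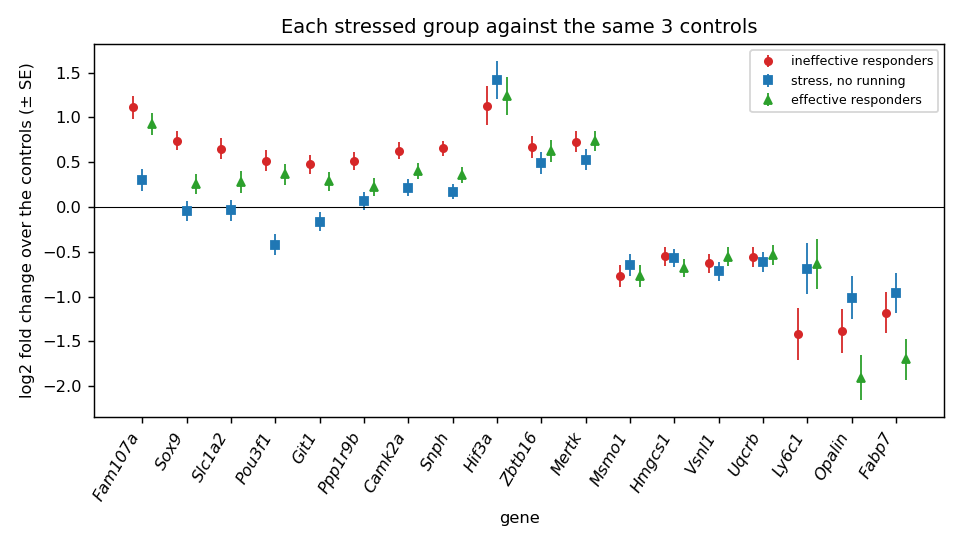
Log2 fold change over the same 3 controls with its standard error (vertical axis) of 18 genes (horizontal axis) in ineffective responders (red), SS mice (blue) and effective responders (green), 3 mice per group. For Sox9, Slc1a2, Git1 and Pou3f1 the blue points lie near or below 0 and the red points between 0.48 and 0.74, while the 3 groups lie together for Msmo1, Hmgcs1, Vsnl1 and Uqcrb.

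Between ineffective and effective responders, which had the same treatments and differed in behavioural outcome, no gene was called of 14548 (0%) by edgeR, with a smallest adjusted p of 0.999. At an unadjusted p under 0.05 there were 534 genes, DESeq2 called 1 gene and limma-voom 0. Sox9 differed by 0.48 ± 0.11, Slc1a2 by 0.37 ± 0.12, Fam107a by 0.19 ± 0.12 and Pou3f1 by 0.15 ± 0.12, each with an adjusted p of 0.999.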

How the data were processed

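The authors deposited 1 table per mouse of estimated counts, whole numbers for 33299 RefSeq transcripts under 23183 symbols, not normalized. TopHat and build mm10 are named in the submitters' processing notes. The software that counted reads, whether it used strand, and its annotation release: not given in the sources used here. Per the labels' protocols, 1.3 µg of RNA went into each strand-keeping library. Nothing states whether mice of a group shared a cage or a cohort.

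Transcript rows were summed per symbol. Lars2, Zc3h7a, Cmss1 and Filip1l were removed before library totals were taken. Genes passed filterByExpr of edgeR 4.0.16 (R 4.3.3, minimum count 10), libraries were scaled by TMM (0.963 to 1.018 in the 6 libraries), and 1 fit over the 12 libraries (8 residual degrees of freedom) gave the quasi-likelihood F tests, adjusted by Benjamini-Hochberg over 14548 genes. The coefficient of biological variation was 15.7%. SE was derived from the F statistic. A count of 0 allows 3 counts, or 0.217 to 0.33 CPM here, for counting error only. On simulated counts for this comparison (14338 genes), 88 of 100 genes changed 2-fold and 42 of 100 changed 1.5-fold were recovered, with 10 unchanged genes called. Changed genes were drawn only from those above a set level in controls. The simulated counts held no length gradient and no mouse that stood apart, so these rates need not hold for the real data.

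Genes named were the 15 of each direction with the lowest p among those called without overlap, up to 4 called members (or 2 by p) of each of 46 lists, and fixed genes of stress and plasticity, of which a selection is given and some are not reported here. The members, lists and motifs were chosen with earlier results of these data known. Transcript length and GC content came from GENCODE M21 sequences (98.6% of genes matched), with the correction added after the data were seen. Coordinates and promoter sequences are from RefSeq, GRCm38.p6. Alternatives included DESeq2 1.42.0 and limma-voom (limma 3.58.1).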

Additional observations from a re-analysis of the deposited data

Results flagged for a closer look

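The effect of restraint with a wheel and no behavioural improvement differed from that of restraint alone, by a direct test over all genes, in 2 genes. Pou3f1 stood 0.94 higher in ineffective responders than in SS mice on the log2 scale (edgeR adjusted p = 0.0315). Its effects against controls had opposite signs, 0.52 (not called, adjusted p = 0.0555) and -0.42. Sox9 stood 0.79 higher (adjusted p = 0.0485), with effects of 0.74 and -0.05. In effective responders the effects against controls were 0.36 for Pou3f1 and 0.26 for Sox9, neither called (adjusted p = 0.182 and 0.278). Neither difference from SS was called when only the 6 libraries compared were fitted (adjusted p = 0.25 for both). SS mouse 18 stood apart from the other SS mice, and without it both differences were called (0.94 and 0.83). That fit rests on SS mice 19 and 21, whose Malat1 levels (3813 and 5270 CPM) stood above the 511 CPM of mouse 18.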

How the results depend on the processing

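No paired analysis was possible because ineffective responders and controls share no mouse number, and neither do ineffective and effective responders, while ineffective responders and SS share 1. For ineffective responders against controls (162 genes, 119 higher and 43 lower), DESeq2 called 773 (484 and 289), a fit of the 6 libraries compared 276 (203 and 73), a fit without SS 441 (311 and 130), a fit without control mouse 2 and SS mouse 18, added after the data were seen, 787 (510 and 277), transcripts as deposited 19 (15 and 4), and length and GC correction 11 (9 and 2). Leaving out 1 mouse gave 0 to 168 genes, 0 to 114 higher and 0 to 54 lower. Of the 162, 148 were called in the 6-library fit and all 11 calls after correction were among them. For ineffective responders against SS (2, both higher), no filter on low counts gave 6 higher, DESeq2 550 (305 and 245), limma-voom 3 higher, the 6 libraries compared 0 (1908 at an unadjusted p under 0.05), and keeping the 4 genes set aside 7 (3 and 4). Leaving out 1 mouse gave 0 to 2410 genes, with 0 to 1082 higher and 0 to 1328 lower. Against effective responders, DESeq2 called 1 lower gene and keeping the 4 genes set aside gave 4 lower genes. Those set-aside genes read 0 in every ineffective responder and 23 to 274209 counts in SS mice and effective responders. They thus enter both of these fits as lower because of the zeros. The causes of the other differences were not tested. Values of Nr3c1, Bdnf, Srebf2 and Ttr turned sign. Nr3c1 was at -0.0084 with upper-quartile factors, -0.049 after length and GC correction, -0.012 without control mouse 2 and SS mouse 18, -0.0016 with limma-voom and -0.00091 with transcripts as deposited, and ran from -0.11 to 0.14 when 1 mouse was left out. Bdnf was at -0.40 with transcripts as deposited and Srebf2 at -0.017 after length and GC correction. Ttr, at -1.59 as fitted with a level in control mouse 2 far above the other controls, was at 1.35 with limma-voom, 5.15 without control mouse 2 and SS mouse 18, and ran from -4.58 to 5.13 when 1 mouse was left out. Of 1634 values of the 91 named genes under alternatives, 1124 kept their direction and side of the threshold, 457 kept direction but were no longer called, 39 were newly called and these 14 turned sign. Precision is limited by 3 mice per group.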
